A study of Homo sapiens with 12 samples.

Results

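HSF2BP, NFIL3, PDE4B, HDAC9, ZBTB38, ZNF608, PALMD, MTRES1 and SULT2B1 are 9 genes marked by name in the study's plot of the R1 response to homocysteine medium. These genes fit none of the other pathways into which genes were sorted for the re-analysis, a sorting that is not the study's own. They are 9 of the 23500 genes listed, and all 9 were among the 17162 genes that passed the filter on low counts. They were selected on their difference between media in R1 cells, so every value for that difference is given here as a description without a test, and that all 9 were higher in R1 is what the selection fixed. HSF2BP is also named in the study's plot for HEK293T cells, so its HEK293T difference is a description too. The R1 cells in methionine medium entered the selection as well, whereas the HEK293T difference between media did not enter it for the other 8 genes.

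RNA was measured by sequencing in HEK293T cells, a human embryonic kidney line that does not proliferate when methionine is replaced by homocysteine, and in R1, a clone isolated from HEK293T that does. Both were kept for 12 h in medium with methionine (+Met) or in medium in which homocysteine took its place (−Met+Hcy), and each of the 4 groups has 3 libraries. R1 is 1 clone, so a difference between R1 and HEK293T is a difference between that clone and its parent line. The other components of the media were shared, and the labels give HEK293T as the cell line of the R1 libraries and R1 in their titles.

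Methionine is converted to S-adenosylmethionine, the donor of most cellular methyl groups, and homocysteine is what remains after the methyl group is used. Remethylation of homocysteine restores methionine, so cells in −Met+Hcy medium depend on that step for both methionine and S-adenosylmethionine. The 9 genes have no common pathway. HSF2BP binds the heat shock factor HSF2 and the recombination protein BRCA2, and acts in meiotic recombination. NFIL3 is a repressor with a basic leucine zipper that takes part in circadian and immune gene regulation, ZBTB38 is a zinc finger protein that binds methylated DNA, ZNF608 is a zinc finger protein, and HDAC9 is a class IIa histone deacetylase. PDE4B hydrolyses the second messenger cAMP. PALMD belongs to the paralemmin family, MTRES1 acts in mitochondrial gene expression, and SULT2B1 transfers sulfate to cholesterol and other sterols.

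A library's total ranged from 12664158 to 18771349 estimated counts. The third library of R1 −Met+Hcy stood apart from the others of its group, with CPM (counts scaled to one common library total) that fell as the GC content of the transcript rose. The median log2 ratio of its CPM to the mean of replicates 1 and 2 was 0.53 for transcripts under 40% GC and −1.98 for those of at least 60%, over genes whose mean reached 4 CPM. R1 fold changes and −Met+Hcy means of the 9 genes are therefore given with and without it. Of 9 genes fixed as markers of HEK293T cells, 7 were at 1 CPM or more in every library, and the other two, PAX2 and LHX1, were below 1 CPM in at least 1 HEK293T library. Of 8 markers of blood, endothelial, liver and fibroblast cells, 5 had at most 20 counts in every library, while the collagens COL1A1 and COL3A1 were above 1 CPM in all and reached 722 counts.

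A 300-base promoter window is shown for each of ZBTB38 and NFIL3, the members in whose promoters a searched element was present. RefSeq promoters (GRCh38.p14, 250 bases before to 50 after a transcript start) matched 7 of the 9 genes, with 26 promoters between them, and HSF2BP and MTRES1 had no entry. Both strands were searched. The cAMP response element TGACGTCA, bound by CREB and ATF factors, was present in 1.85% of all 35116 promoters, and among those of the 9 genes in 1 of the 10 of ZBTB38, 49 bases before the start. Its core TGACG, which lies within the full one, was present in 24.6% of all promoters, and was found in a second promoter of ZBTB38 and in 1 of the 2 of NFIL3, 15 bases before a RefSeq start that lies upstream of the GENCODE span given below. The NFIL3 promoter that covers the start of that span held none of the elements. The C/EBP-ATF composite element TGATGNAAT (0.991% of all promoters) and the D-box to which NFIL3 binds, TTACGTAA (0.125%) or TTATGTAA (0.886%), had no match in the 26. A match is a run of letters and no evidence of binding. In the first window (chr3:141368254-141368553, + strand) capitals mark the full element, and in the second (chr9:91424577-91424876, − strand) they mark the core, which is on the opposite strand.
ZBTB38 promoter: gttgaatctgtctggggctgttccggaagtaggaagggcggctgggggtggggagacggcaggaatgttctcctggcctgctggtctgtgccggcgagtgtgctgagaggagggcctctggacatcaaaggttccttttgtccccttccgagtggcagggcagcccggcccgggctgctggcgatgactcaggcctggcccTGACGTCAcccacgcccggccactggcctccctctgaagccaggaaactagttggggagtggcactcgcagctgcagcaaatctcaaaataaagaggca
NFIL3 upstream promoter: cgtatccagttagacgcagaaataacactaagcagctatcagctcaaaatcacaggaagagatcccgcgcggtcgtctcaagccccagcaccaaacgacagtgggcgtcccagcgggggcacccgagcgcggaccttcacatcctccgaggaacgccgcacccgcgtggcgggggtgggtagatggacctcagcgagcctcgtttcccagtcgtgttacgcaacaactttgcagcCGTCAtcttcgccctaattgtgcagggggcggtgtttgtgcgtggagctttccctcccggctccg

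HSF2BP (ENSG00000160207, chr21:43529186-43659488 of GRCh38, − strand) was near the limit of detection in HEK293T +Met, with 6, 3 and 12 counts. Its CPM there was 0.375, 0.205 and 0.735, and in HEK293T −Met+Hcy 12.7, 13.3 and 12.4. In these bulk libraries, more RNA per cell and more cells that express a gene cannot be told apart. In R1 it was 2.67, 2.55 and 3.16 CPM in +Met, and 8.09, 6.59 and 7.62 in −Met+Hcy. No library of any group overlapped with another group, and the order from low to high was HEK293T +Met, R1 +Met, R1 −Met+Hcy and HEK293T −Met+Hcy. The log2 fold change between media was 4.53 (SE 0.392) in HEK293T cells and 1.47 (SE 0.329) in R1 cells, or 1.35 (SE 0.263) in R1 without replicate 3. In +Met the R1 level was above that of HEK293T by a log2 value of 2.27 (SE 0.383), a description, since both lines entered the choice of HSF2BP. It was also the one member whose level in R1 −Met+Hcy replicate 3 lay between those of the other two libraries. H2BC12L, a histone gene on the opposite strand inside the HSF2BP span, had 0 to 2 counts in every library.

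Of 8 tested genes among the heat shock factors and the recombination partners of HSF2BP, 2 rose and 1 fell in HEK293T cells. In R1 0 were called (0 at an unadjusted p under 0.05 and 0 with DESeq2). By edgeR only 1 of all 17162 genes was called higher in R1 and 0 lower. A count of 0 called in R1 is therefore not read, here or for the lists below. BRME1, which forms a complex with HSF2BP in meiosis, had 12, 18 and 12 counts in HEK293T +Met and 97, 71 and 72 in −Met+Hcy, and rose by a log2 value of 2.23 (SE 0.44, edgeR, Benjamini-Hochberg adjusted p = 0.0119). In R1 its mean was 3.08 CPM ± 0.673 in +Met and 3.44 ± 1.78 in −Met+Hcy (SD, n = 3), between the levels of the HEK293T groups. BRME1 is listed under 2 gene identifiers, between which reads could be divided, so its level is uncertain. PALB2, the partner that links BRCA1 to BRCA2, rose in HEK293T cells from 14.8 CPM ± 0.963 to 48.0 ± 1.35 (SD, n = 3), a log2 fold change of 1.41 (SE 0.216, edgeR, Benjamini-Hochberg adjusted p = 0.00378). R1 cells had 27.0 CPM ± 1.85 and 32.8 ± 6.42 of it, again between the HEK293T groups. HSF4, a heat shock factor, fell by 2.46 on the log2 scale (SE 0.533, edgeR, Benjamini-Hochberg adjusted p = 0.0184), and HSF2 itself had a log2 value of 0.33 (SE 0.257) and was not called.

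NFIL3 (ENSG00000165030, chr9:91409045-91423832, − strand), with the upstream promoter shown above, was at 18.2, 22.7 and 19.5 CPM in HEK293T +Met and at 63.5, 69.2 and 73.9 in −Met+Hcy. R1 cells had 15.1, 18.2 and 14.4 CPM in +Met and 28.9, 27.5 and 39.6 in −Met+Hcy. No 2 neighbouring groups in the order of means overlapped, and every R1 −Met+Hcy library was below every HEK293T −Met+Hcy library. NFIL3 rose in HEK293T cells by a log2 fold change of 1.48 (SE 0.234, edgeR, Benjamini-Hochberg adjusted p = 0.00429). The log2 fold change in R1 was 1.08 (SE 0.233), and 0.78 (SE 0.161) without replicate 3. In +Met, R1 minus HEK293T was −0.69 on the log2 scale (SE 0.233).

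NFIL3 competes at D-boxes with the PAR bZIP factors DBP, TEF and HLF, and 15 of 16 listed factors and clock genes could be tested. In HEK293T cells 3 were called higher and 0 lower (5 and 1 at an unadjusted p under 0.05, and 3 and 0 with DESeq2). DBP rose by a log2 value of 1.06 (SE 0.233, edgeR, Benjamini-Hochberg adjusted p = 0.019). NR1D2, a nuclear receptor that represses clock genes, rose by 1.03 (SE 0.167, edgeR, Benjamini-Hochberg adjusted p = 0.00478), and BHLHE40, another circadian repressor, by 1.35 (SE 0.31, edgeR, Benjamini-Hochberg adjusted p = 0.0236). TEF had a log2 value of 0.07 (SE 0.905) and HLF of 1.24 (SE 0.464), neither of them called. In R1, 0 of the 15 were called in either direction (0 higher and 1 lower at an unadjusted p under 0.05, and 0 with DESeq2). NR1D2 was at 36.1 CPM ± 3.73 in R1 +Met and 42.7 ± 1.38 in R1 −Met+Hcy (SD, n = 3), against 35.2 ± 3.86 and 87.9 ± 3.57 in HEK293T. ARNTL, which encodes the clock activator BMAL1, was higher in R1 than in HEK293T in +Met by a log2 value of 1.06 (SE 0.237, edgeR, Benjamini-Hochberg adjusted p = 0.0159).

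ZBTB38 (ENSG00000177311, chr3:141324213-141449792, + strand) was at 15.3, 20.8 and 20.2 CPM in HEK293T +Met and at 106, 100 and 78.7 in −Met+Hcy. In R1 +Met it was at 42.3, 29.2 and 39.1 CPM, and in R1 −Met+Hcy at 61.8, 64.9 and 96.9. The groups were apart within each line, and in −Met+Hcy the R1 and HEK293T libraries overlapped through R1 replicate 3. ZBTB38 rose in HEK293T cells by a log2 fold change of 2.04 (SE 0.262, edgeR, Benjamini-Hochberg adjusted p = 0.00159). In R1 the value was 1.10 (SE 0.254), and 0.74 (SE 0.173) without replicate 3, and R1 minus HEK293T in +Met was 0.62 on the log2 scale (SE 0.254). ZBTB33 (Kaiso), a relative that also binds methylated DNA, had a log2 fold change of 0.80 (SE 0.217) in HEK293T and 0.71 (SE 0.216) in R1, under the fold threshold in both. Of 9 other genes tested, which encode proteins that bind methylated DNA or act with ZBTB38, 0 were called in either line (1 higher in HEK293T and 3 higher in R1 at an unadjusted p under 0.05, 0 with DESeq2). PXYLP1, a neighbour on the same strand whose span overlaps that of ZBTB38, had 193 to 378 counts over the 12 libraries.

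ZNF608 (ENSG00000168916, chr5:124636913-124748807, − strand) was at 13, 17.7 and 9.85 CPM in HEK293T +Met and at 72.7, 50.1 and 40.9 in −Met+Hcy. R1 libraries were at 59.8, 29.3 and 58.2 CPM in +Met and at 112, 103 and 122 in −Met+Hcy. R1 cells in +Met thus overlapped with HEK293T cells in −Met+Hcy, and R1 cells in −Met+Hcy were above all other libraries. ZNF608 rose in HEK293T cells by a log2 fold change of 1.71 (SE 0.304, edgeR, Benjamini-Hochberg adjusted p = 0.00704), against 1.26 (SE 0.297) in R1 and 1.10 (SE 0.287) in R1 without replicate 3. In +Met, R1 minus HEK293T was 1.51 on the log2 scale (SE 0.303). Its paralog ZNF609 had log2 fold changes of 0.43 (SE 0.31) in HEK293T and 0.00 (SE 0.307) in R1, and 0 of the 4 related genes were called in either line (1 higher in R1 at an unadjusted p under 0.05, 0 with DESeq2).

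HDAC9 (ENSG00000048052, chr7:18086949-19002416, + strand) gave 2, 8 and 10 counts in HEK293T +Met, against 29, 38 and 32 in −Met+Hcy. The R1 libraries gave 24, 21 and 7 counts in +Met, against 56, 47 and 126 in −Met+Hcy. In CPM these were means of 0.428 ± 0.265 and 2.12 ± 0.101 in HEK293T, and of 1.03 ± 0.431 and 4.63 ± 1.87 in R1 (SD, n = 3), the last being 3.59 ± 0.697 without replicate 3 (SD, n = 2). The +Met groups of the lines overlapped, and R1 −Met+Hcy was above all other libraries. The log2 fold change of 2.01 (SE 0.589) in HEK293T did not pass the test with all 12 libraries (edgeR, Benjamini-Hochberg adjusted p = 0.062), and passed it without R1 −Met+Hcy replicate 3 (adjusted p = 0.00854 in the same test). In R1 it was 2.23 (SE 0.555), and 1.72 (SE 0.455) without that library. Of 14 other deacetylases and MEF2 factors, the partners that class IIa deacetylases repress, 0 were called in either line. At an unadjusted p under 0.05 there were 2 higher and 2 lower in HEK293T and 0 and 1 in R1, and DESeq2 called 0 in both. The class IIa member HDAC4 had a log2 value of −1.06 (SE 0.408) in HEK293T, HDAC7 of −0.81 (SE 0.291) and HDAC5 of 0.66 (SE 0.333), so the values of the class did not share a direction.

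PDE4B (ENSG00000184588, chr1:65792514-66374579, + strand) had 10, 18 and 5 counts in HEK293T +Met, against 99, 86 and 118 in −Met+Hcy. In R1 it had 14 counts in each library of +Met, and the −Met+Hcy libraries held 47, 44 and 130. The lines overlapped in both media, at means of 0.722 CPM ± 0.471 in HEK293T and 0.893 ± 0.186 in R1 in +Met, and of 6.59 ± 1.39 and 4.42 ± 2.19 in −Met+Hcy (SD, n = 3). Without replicate 3 the R1 −Met+Hcy mean was 3.16 CPM ± 0.373 (SD, n = 2), and both its libraries were below those of HEK293T. PDE4B rose in HEK293T cells by a log2 fold change of 2.91 (SE 0.539, edgeR, Benjamini-Hochberg adjusted p = 0.00867), and was not called without HEK293T +Met replicate 1 (adjusted p = 0.0547 in the same test). In R1 the log2 fold change was 2.41 (SE 0.526), and 1.79 (SE 0.407) without replicate 3, in which PDE4B was 2.19 times the mean of replicates 1 and 2.

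Of 17 other phosphodiesterases and components or targets of cAMP signalling, all tested, 1 was called between media, PDE4D in HEK293T cells. At an unadjusted p under 0.05 there were 4 higher and 2 lower in HEK293T and 2 higher in R1, and DESeq2 called 2 higher in HEK293T and 0 in R1. This paralog of PDE4B rose from 2.29 CPM ± 0.512 to 6.93 ± 0.334 (SD, n = 3), a log2 fold change of 1.30 (SE 0.288, edgeR, Benjamini-Hochberg adjusted p = 0.0201). In R1 it was at 7.8 CPM ± 0.938 in +Met and 7.98 ± 1.64 in −Met+Hcy, and the +Met level was above that of HEK293T by a log2 value of 1.41 (SE 0.288, edgeR, Benjamini-Hochberg adjusted p = 0.00954). PDE4A had log2 values of −0.73 (SE 0.254) in HEK293T and −0.32 (SE 0.255) in R1, neither called, and PDE4C had at most 13 counts in any library.

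PALMD (ENSG00000099260, chr1:99646113-99694541, + strand) had 15, 17 and 17 counts in HEK293T +Met, against 43, 59 and 50 in −Met+Hcy. R1 cells gave 16, 9 and 5 counts in +Met, against 30, 32 and 49 in −Met+Hcy. In CPM no groups overlapped, and R1 was below HEK293T in each medium, at 0.604 ± 0.284 against 1.05 ± 0.113 in +Met and 2.3 ± 0.27 against 3.26 ± 0.227 in −Met+Hcy (SD, n = 3). Without replicate 3 the R1 −Met+Hcy mean was 2.15 ± 0.0554 (SD, n = 2). The log2 fold change in HEK293T was 1.34 (SE 0.407) and was not called with all 12 libraries (edgeR, Benjamini-Hochberg adjusted p = 0.0702), but was called without R1 −Met+Hcy replicate 3 (adjusted p = 0.00804 in the same test). In R1 it was 1.97 (SE 0.424), and 1.75 (SE 0.37) without replicate 3. R1 minus HEK293T in +Met was −1.12 on the log2 scale (SE 0.428). Of the 3 other paralemmin genes tested 0 were called in either line (1 higher and 1 lower in HEK293T at an unadjusted p under 0.05, and 1 lower with DESeq2), and PALM had log2 values of −1.07 (SE 0.36) in HEK293T and −0.48 (SE 0.348) in R1.

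MTRES1 (ENSG00000130349, chr6:107028199-107051586, + strand) was at 7.51, 9.8 and 11.1 CPM in HEK293T +Met and at 18.9, 20.9 and 21.3 in −Met+Hcy. In R1 it was at 5.74, 5.81 and 7.03 CPM in +Met and at 12.8, 10.5 and 25.2 in −Met+Hcy. Replicate 3 was 2.16 times the mean of the other two, and without it every R1 −Met+Hcy value was below every HEK293T −Met+Hcy value. The log2 fold change in R1 was 1.49 (SE 0.353) with and 0.88 (SE 0.195) without it. The HEK293T value of 0.81 (SE 0.346) did not pass the test (edgeR, Benjamini-Hochberg adjusted p = 0.188). Without R1 −Met+Hcy replicate 3 its adjusted p was 0.00419 in the same test, with a fold still under the threshold. Of 15 genes of mitochondrial transcription and DNA maintenance, 0 were called higher and 2 lower in HEK293T cells (2 and 2 at an unadjusted p under 0.05, 0 and 2 with DESeq2). POLG2, the accessory subunit of the mitochondrial DNA polymerase, fell by 1.00 on the log2 scale (SE 0.211, edgeR, Benjamini-Hochberg adjusted p = 0.0155), and SSBP1, which binds single-stranded mitochondrial DNA, fell by 1.20 (SE 0.316, edgeR, Benjamini-Hochberg adjusted p = 0.0402). TFB2M, a mitochondrial transcription factor, was lower in R1 in +Met by a log2 value of −1.45 (SE 0.328, edgeR, Benjamini-Hochberg adjusted p = 0.0165). It was the only one of the 15 called between the lines. At an unadjusted p under 0.05, 0 were higher and 8 lower in R1. The median log2 value of the 15 was −0.65, against 0.02 over all genes tested.

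SULT2B1 (ENSG00000088002, chr19:48552172-48599425, + strand) had 8, 9 and 19 counts in HEK293T +Met, against 8, 12 and 12 in −Met+Hcy. R1 cells had 9, 2 and 4 in +Met, against 18, 20 and 92 in −Met+Hcy. It was the only one of the 9 whose media overlapped in HEK293T cells, and the R1 −Met+Hcy libraries were above all others, replicate 3 at 4.9 CPM and replicates 1 and 2 at 1.31 and 1.32. The log2 fold change in HEK293T was −0.44 (SE 0.728, edgeR, Benjamini-Hochberg adjusted p = 0.775), and in R1 it was 3.11 (SE 0.771), or 2.00 (SE 0.619) without replicate 3. Replicate 3 was thus 3.73 times the mean of the other two for a transcript of 61.8% GC, whereas genes within 1% of that GC content had a median log2 ratio of −1.82 in that library. That median was taken with 0.5 CPM added to each value, and the ratio of 3.73 without it. The cause of the difference was not tested. Of the 31-base words of its annotated transcripts, 6.26% also occur in other listed genes. For MTRES1 the share was 7.24%, and for each of the others it was less than 1%. Over all annotated genes, listed or not, the shares were 12.04% for SULT2B1, 9.22% for MTRES1 and 9.28% for HSF2BP, and at most 1.17% (ZBTB38) for the rest. SULT2A1, the other hydroxysteroid sulfotransferase, had log2 values of 1.21 (SE 0.878) in HEK293T and 0.13 (SE 0.884) in R1. Of the 11 sulfotransferase and PAPS synthase genes tested, 0 were called higher and 2 lower in HEK293T (1 and 5 at an unadjusted p under 0.05, 0 and 3 with DESeq2), and these were SULT1A3 and SULT1A4, near-identical copies that share reads. SULT1A1 and SULT1C4 were higher in R1 in +Met, by log2 values of 2.18 (SE 0.578) and 1.63 (SE 0.242, edgeR, Benjamini-Hochberg adjusted p = 0.0332 and 0.00183).

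**Figure D1:**
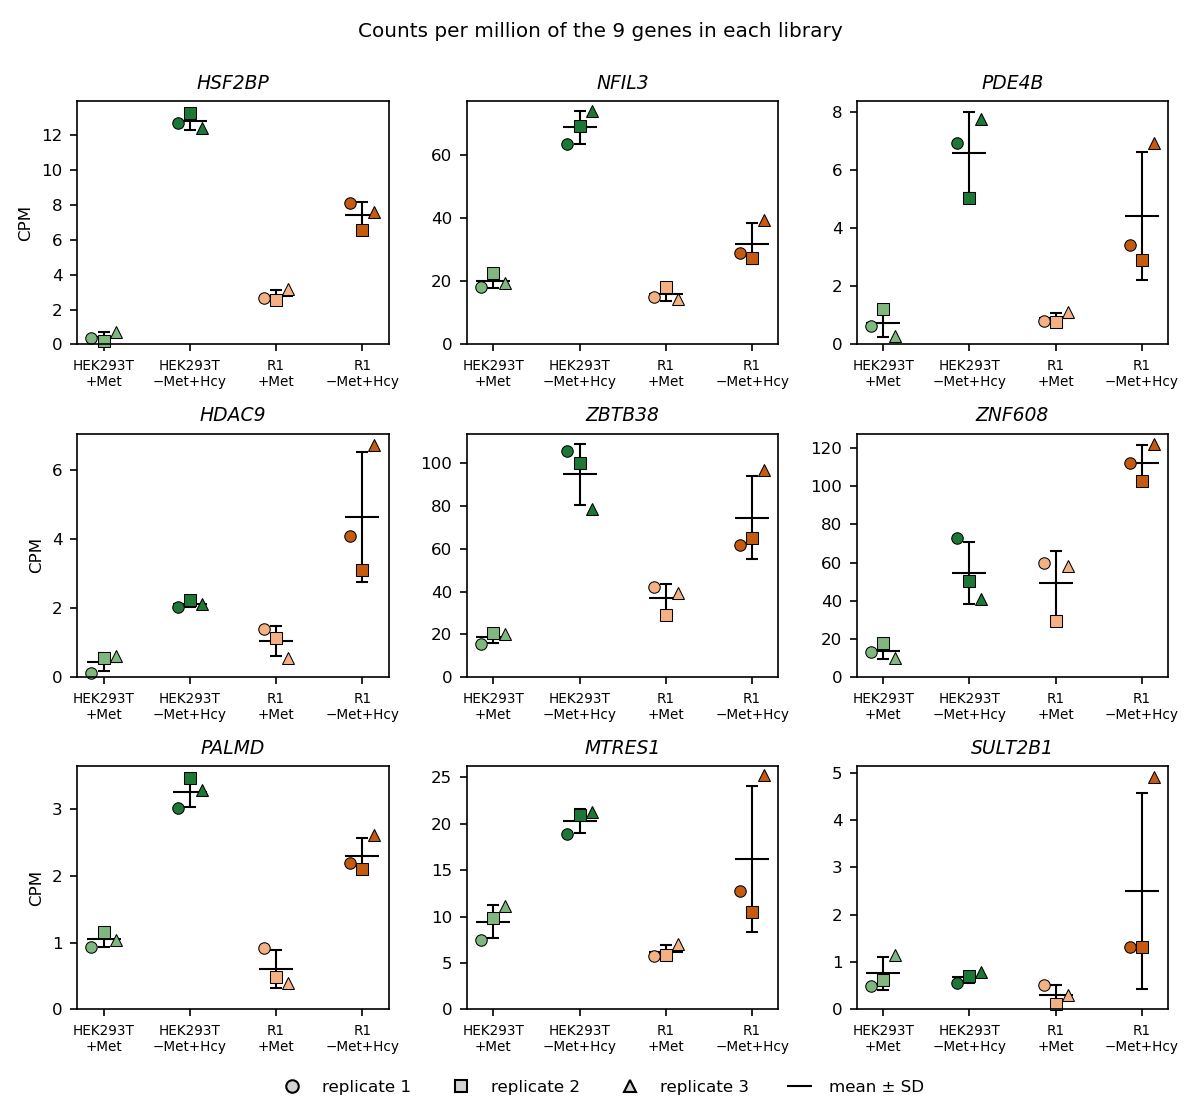
CPM of each gene (vertical axes, linear from 0, a scale for each gene) in the 12 libraries by group. Points are libraries, with the shape giving the replicate, and the black bars are the mean ± SD of 3 libraries. HSF2BP is lowest in HEK293T +Met (0.438 CPM) and highest in HEK293T −Met+Hcy (12.8 CPM), and SULT2B1 is highest in R1 −Met+Hcy. The triangle of R1 −Met+Hcy replicate 3 is the highest of its group for all but HSF2BP. That library is part of the contrast that chose the genes.

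The HEK293T difference between media did not select the genes other than HSF2BP. Whether the study fitted both lines together, with a shared estimate of the spread, is not stated. In these cells 5 of the 9 were called higher (HSF2BP, NFIL3, PDE4B, ZBTB38 and ZNF608, or 4 of 8 leaving out HSF2BP), where 3.04% of all genes tested were called higher. The call needed a change of more than 1 on the log2 scale, up or down, and an adjusted p under 0.05. Without R1 −Met+Hcy replicate 3 the spread estimated over all libraries was smaller, with a common dispersion of 0.0349 in place of 0.109, and 7 of the 9 were called, with HDAC9 and PALMD added, where 6.76% of all genes were. In 8 of the 9, all except SULT2B1, every −Met+Hcy library of HEK293T was above every +Met library in CPM, as in 38.6% of all genes. That share includes a shift between the media, since the median gene of at least 1 CPM had a log2 ratio of 0.29 from CPM, which the scaling in edgeR removes. Folds taken from CPM in HEK293T are therefore about 1.23 times those of the model. The median log2 fold change of the 9 in HEK293T was 1.71, against 0.03 over all genes tested. This median includes HSF2BP, whose HEK293T difference is a description. So do the 7 of 9 called without replicate 3 and the 8 of 9 with media apart.

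In R1 the median of the 9 was 1.49 with all libraries and 1.35 without replicate 3 (−0.02 and 0.0 over all genes), values that the selection fixed. Single log2 fold changes ran from 1.08 for NFIL3 to 3.11 for SULT2B1, and without replicate 3 from 0.74 for ZBTB38 to 2.00 for SULT2B1. As ratios of mean CPM, the 9 were 2.01 to 7.96 times higher in −Met+Hcy, and 1.72 to 4.17 times without replicate 3. In all 9 the media were apart in CPM, as in 5.22% of all genes, and also without replicate 3, as in 14.2%. By edgeR's rule 1 gene of the whole table was called higher in R1 (0.00583%) and none of the 9, whereas DESeq2 called all 9, beside 0.146% of all genes. With replicate 3 left out DESeq2 called 3 of them (HSF2BP, PDE4B and PALMD), beside 0.0937%. Nothing is read from these shares, since the same contrast chose the genes.

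**Figure D2:**
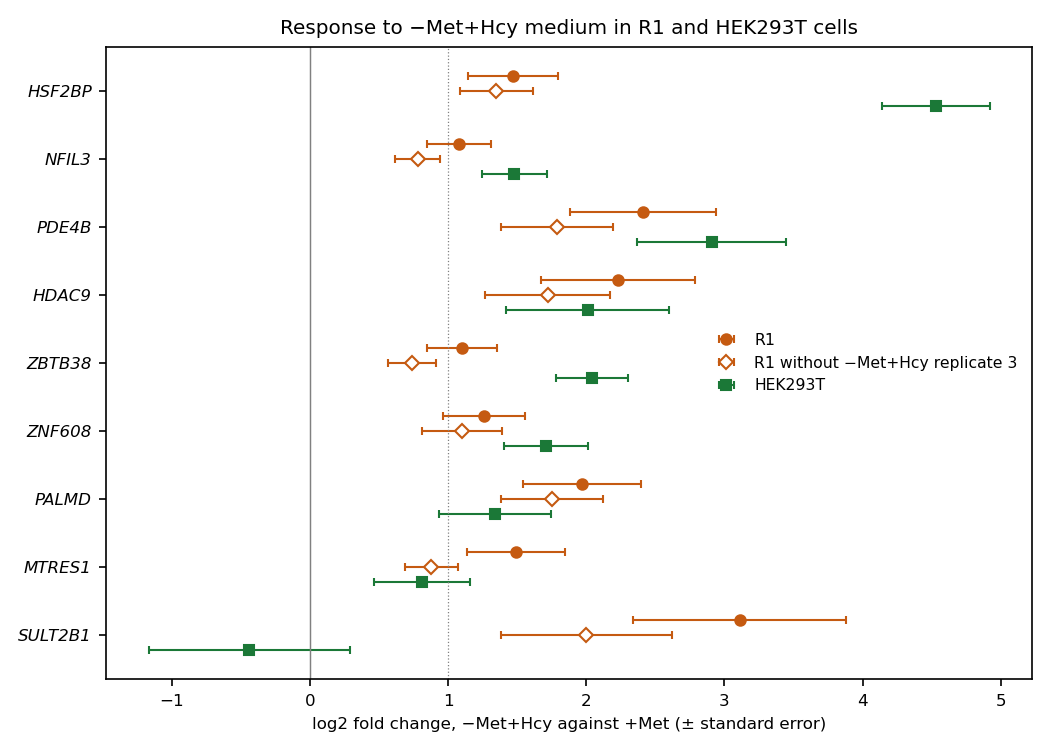
Log2 fold change between −Met+Hcy and +Met (horizontal axis, edgeR estimate, bars ± standard error) for each gene in R1, in R1 without −Met+Hcy replicate 3, and in HEK293T. The dotted line marks the threshold of 1. HSF2BP is at 4.53 in HEK293T and 1.47 in R1, SULT2B1 at −0.44 and 3.11, and the open diamonds lie to the left of the filled R1 points for all 9 genes.

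Replicate 3 of R1 −Met+Hcy had the highest CPM of its group for 8 of the 9 genes, by 1.13 times (ZNF608) to 3.73 times (SULT2B1) the mean of the other two. That library is part of the contrast that chose the genes, so high values in it are partly what the selection fixed. No share of all genes is given beside this count, and nothing is read from it. The transcripts of 8 of the 9 had a GC content between 40.2% (HDAC9) and 49.9% (HSF2BP), and that of SULT2B1 61.8%. Genes of the same GC content had a median log2 ratio in this library of 0.38 for HDAC9, 0.4 for ZBTB38 and 0.38 for PALMD, beside ratios of 0.9, 0.61 and 0.28 for these genes themselves. For PDE4B and MTRES1 the ratios of 1.13 and 1.11 were above medians of −0.04 and 0.15. For HSF2BP, NFIL3 and ZNF608 the ratios were 0.05, 0.49 and 0.18, beside medians of −0.42, −0.04 and −0.16. Only PALMD was below the median of genes of its GC content. The medians were taken with 0.5 CPM added to each value and the ratios of the 9 without it, which widens the ratios of genes at low CPM. With the trend removed from every library, the R1 median of the 9 was 1.53, and 1.32 without replicate 3. The R1 value of SULT2B1 moved most, from 3.11 to 4.47 on the log2 scale, and was 2.03 with the trend removed and replicate 3 left out.

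**Figure D3:**
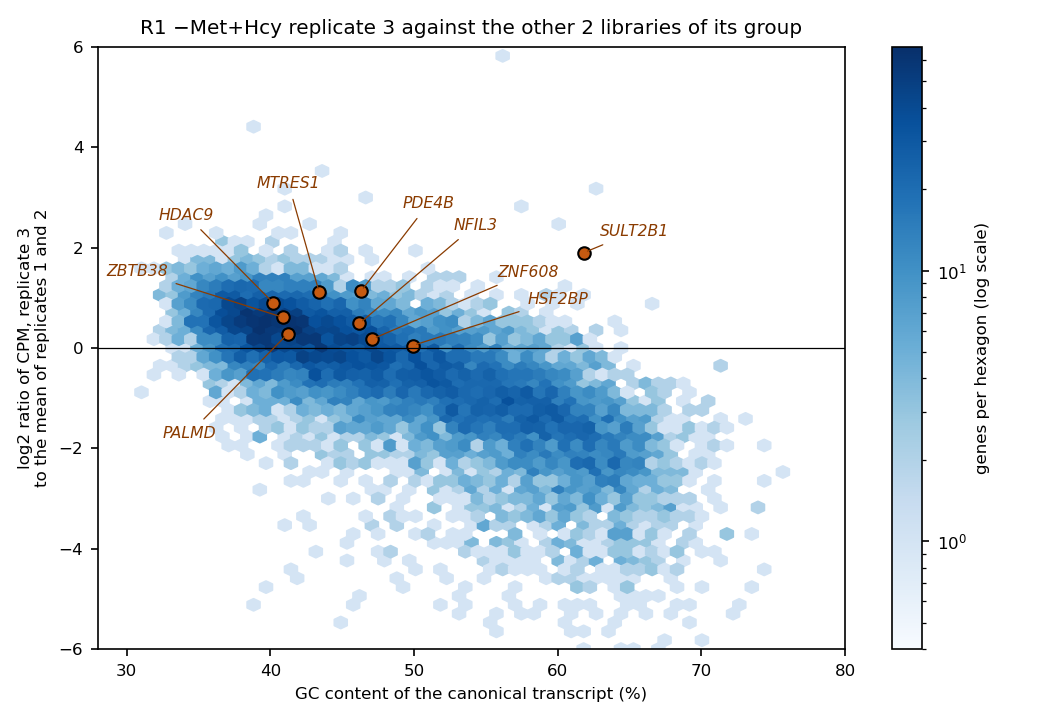
Log2 ratio of CPM in R1 −Met+Hcy replicate 3 to the mean of replicates 1 and 2 (vertical axis) against the GC content of the canonical transcript (horizontal axis, %). Hexagons count genes whose mean reached 4 CPM on a log colour scale, 12 genes lie outside the axes, and orange points are the 9 genes whatever their level. For the hexagons 0.5 CPM was added to each value before the ratio, and for the orange points nothing was added. The cloud falls with GC content from a median of 0.53 under 40% to −1.98 from 60%, and SULT2B1 lies at 1.9 at 61.8% GC, away from it.

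The estimated responses of the lines differed in both directions. As a description, since its R1 side chose the genes, the log2 fold change in R1 minus that in HEK293T was −3.07 (SE 0.498) for HSF2BP, −0.94 (SE 0.357) for ZBTB38 and 3.55 (SE 1.05) for SULT2B1. Without replicate 3 these values were −3.17 (SE 0.417), −1.30 (SE 0.238) and 2.44 (SE 0.826). The SULT2B1 value rests on 2 to 9 counts in R1 +Met and 8 to 19 in HEK293T +Met. For the genes not yet named the difference was between −0.50 (PDE4B, SE 0.732) and 0.67 (MTRES1, SE 0.489). Without replicate 3 it was −1.12 (SE 0.568) for PDE4B and 0.06 (SE 0.258) for MTRES1. HDAC9 had 0.23 (SE 0.828) with and −0.29 (SE 0.656) without that library, so its direction turned. Its ratios of mean CPM, 4.96 in HEK293T and 4.5 in R1, were also ordered the other way.

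The levels of the lines in +Met are a description as well, since the R1 +Met libraries are one side of the contrast that chose the genes and, for HSF2BP, the HEK293T ones too. By the same rule for calls, HSF2BP and ZNF608 would count as higher in R1, beside 4.71% of all genes, and 0 of the 9 as lower, beside 2.95%. ZNF608 would not without HEK293T +Met replicate 3, and nothing is read from these counts. The estimate was lower in R1 for 5 of the 9, with the largest value for SULT2B1, −1.62 (SE 0.769). Without R1 −Met+Hcy replicate 3, PALMD would count as lower with edgeR and DESeq2, and SULT2B1 with DESeq2 or with the GC trend removed. NFIL3, PALMD and MTRES1 had every R1 library below every HEK293T library in CPM, as in 9.15% of all genes. HSF2BP, ZBTB38 and ZNF608 had every R1 library above every HEK293T library, as in 38.1% of all genes. PDE4B, HDAC9 and SULT2B1 overlapped between the lines, and the sign for PDE4B depended on the scaling, with a log2 value of −0.03 (SE 0.548) in the model and a higher mean CPM in R1. The median log2 ratio of CPM between the lines over all genes of at least 1 CPM was 0.36, and the model removes it.

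Levels of different genes were compared per kilobase of the canonical transcript. In HEK293T +Met, NFIL3 and MTRES1 led with 9.81 and 8.17 CPM per kb, ZBTB38 and ZNF608 followed with 2.34 and 2.2, and the other five were between 0.0434 (HDAC9) and 0.635 (SULT2B1). In HEK293T −Met+Hcy the order was led by NFIL3 (33.5), MTRES1 (17.6) and ZBTB38 (11.8), and HSF2BP reached 6.74. In R1 −Met+Hcy ZNF608 was highest, at 18.2 CPM per kb, above NFIL3 at 15.6 and MTRES1 at 14, and without replicate 3 these were 17.5, 13.7 and 10.1. HDAC9 was lowest in all 4 groups and reached 0.469 CPM per kb in R1 −Met+Hcy, or 0.363 without replicate 3.

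Across all lists of related genes, 96 of 103 could be tested. In HEK293T cells 6 were called higher, beside 3.04% of all genes, and 5 lower, where 1.59% of all genes were called lower (18 and 14 at an unadjusted p under 0.05, 7 and 7 with DESeq2). In R1 cells 0 were called in either direction by edgeR, with 7 higher and 3 lower at an unadjusted p under 0.05 and 0 by DESeq2. Over all genes edgeR called 1 higher in R1 (0.00583%) and 0 lower, so nothing is read from the 0 among the related genes. Between the lines in +Met 4 were called higher in R1, beside 4.71% of all genes, and 1 lower, beside 2.95% (19 and 11 at an unadjusted p under 0.05, 11 and 1 with DESeq2). Of all 17162 genes, DESeq2 called 749 higher and 407 lower in HEK293T, 25 and 3 in R1, and 1101 and 714 between the lines. No share of all genes is given for the unadjusted p, and nothing is read from the counts of single lists.

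**Figure D4:**
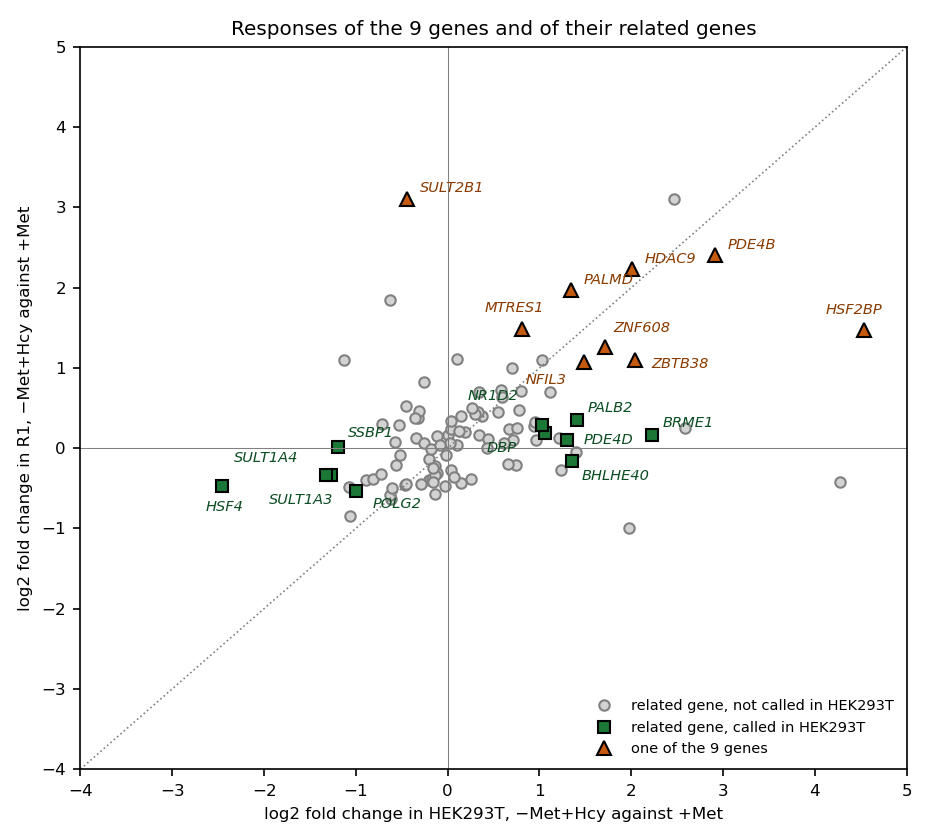
Log2 fold change between −Met+Hcy and +Met in R1 (vertical axis) against that in HEK293T (horizontal axis) for the 9 genes and the related genes tested, with the line of equal change dotted and 1 related gene outside the axes. Triangles are the 9 genes, chosen by their vertical position, and squares are the related genes called in HEK293T, of which BRME1 is at 2.23 and HSF4 at −2.46 on the horizontal axis while all 11 lie between −0.54 and 0.35 on the vertical one.

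The genes most alike in pattern were found by Pearson's r of log2 CPM over 11 libraries, without R1 −Met+Hcy replicate 3, among 13914 genes averaging 1 CPM or more. Libraries of the same group share their line and medium, and the values are a description. For HSF2BP the closest was FBXL17 (r = 0.978, or 0.894 with all 12 libraries), followed by H2AX (0.972, or 0.454). For NFIL3 it was SLC2A12 (0.988, or 0.727 with all 12), and TAF5L and IMPACT both had 0.986. TAF5L kept its value of 0.986 over all 12, and IMPACT had 0.941. EPC1 (0.977, or 0.919 with all 12) and RNF19A (0.975, or 0.976) were closest to PDE4B. FAM53C (0.984, or 0.55 with all 12) and NCOA7 (0.983, or 0.983) were closest to ZBTB38. NR2F1 and MECOM (both 0.974, or 0.735 and 0.965 with all 12) were closest to ZNF608. For MTRES1 the closest were B9D2 (0.981, or 0.368 with all 12) and MSTN (0.98, or 0.981). For HDAC9, PALMD and SULT2B1 the closest were CD1D (0.95), ANO7 (0.952) and CNPY4 (0.844), and with all 12 libraries these were 0.124, 0.191 and −0.017. Among the 9 themselves r ran from 0.02 between ZNF608 and MTRES1 to 0.94 between HSF2BP and ZBTB38.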

How the data were processed

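RNA-seq reads of 12 libraries were quantified by the authors with kallisto 0.48.0 against GRCh38 (the submitters' processing notes). The deposited values are estimated counts per Ensembl gene, whole numbers without scaling for depth, and the transcript release is not given in the sources used here. Multi-mapping reads are divided among transcripts by the quantifier, which makes near-identical genes uncertain. Depth was 12664158 to 18771349 counts per library, so a gene under 1 CPM rests on fewer than 20 counts. CPM were computed from column sums.

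Genes with a summed count of at least 10 (17162 of 23500) were tested in R 4.3.3 with edgeR 4.0.16: TMM scaling, a quasi-likelihood fit with 4 group means and Benjamini-Hochberg adjustment over all genes tested. Calls required a change of more than 1 on the log2 scale, in either direction, with an adjusted p under 0.05. Positions and transcripts are those of GENCODE v44, and GC content was available for 15857 of the genes tested (92.4%). On simulated counts for HEK293T −Met+Hcy against +Met (16971 genes) 198 of 200 changed genes were recovered, and 2 unchanged genes were called. The simulated spread was estimated without R1 −Met+Hcy replicate 3, where the common dispersion was 0.0349, against 0.109 with all libraries. Only genes above a minimum mean CPM were changed, by more than the fold threshold. The recovery therefore does not describe the test with all libraries, nor genes near the limit of detection. The alternatives were DESeq2 1.42.0, RLE scaling, other filters, 6 libraries alone, a replicate block, removal of the GC trend, a call rule without the fold threshold and leaving out each library. DESeq2 and GC removal, each combined with leaving out R1 −Met+Hcy replicate 3, were added after the data were seen.

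The 9 genes, the lists of related genes, the markers and the rules were chosen with earlier results of these data known. The level of 1 marker is not reported here. Named besides the 9 were related genes that were called, the nearest paralogs, and the closest genes by correlation. Nothing says that replicates were separate cultures, so p-values measure only the spread between these samples. Deviations of libraries with the same number correlated at −0.07 to 0.48 between HEK293T media and at −0.47 to 0.07 between R1 media, so the numbers were not taken as pairs. No batch is given in the sources used here.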

Additional observations from a re-analysis of the deposited data

Results flagged for a closer look

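The HSF2BP and ZBTB38 values of the R1 response minus the HEK293T response were singled out because the fitted difference passed edgeR's threshold when R1 −Met+Hcy replicate 3 was left out. It was then −3.17 on the log2 scale for HSF2BP (SE 0.417) and −1.3 for ZBTB38 (SE 0.238). Neither passed in the main edgeR fit with all 12 libraries. HSF2BP passed in 5 of 20 alternatives and ZBTB38 in 3 of 20, and the 3 of ZBTB38 all left out replicate 3. Among the 5 of HSF2BP, DESeq2 and the removal of the GC trend kept all 12 libraries, and the rest left out replicate 3. The R1 part of both differences, and the HEK293T part for HSF2BP, is the contrast that chose the genes, so the values are a description and no test of a difference between the lines.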

How the results depend on the processing

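Of the 9 genes, 5 were called in HEK293T with every setting that kept all libraries in edgeR and its 4-group model without GC removal, and 7 with DESeq2, with the 6 libraries alone and with the GC trend removed. Leaving out 1 library gave 4 to 7. Between the lines in +Met, where the counts are a description, 2 became 4 with DESeq2 without R1 −Met+Hcy replicate 3, and ran from 1 to 3 when 1 library was left out. The median of the 9 ran from 1.54 to 1.92 in HEK293T and from 1.35 to 1.76 in R1 with 1 library left out. These HEK293T counts and medians include HSF2BP, whose difference there is a description. PDE4B's difference between lines ran from −0.39 to 0.54, turning to 0.54 without HEK293T +Met replicate 2, and to 0.03 or 0.05 without R1 +Met replicate 1 or 2. SULT2B1 in HEK293T ran from −0.66 to 0.02, turning without HEK293T +Met replicate 3. The causes were not tested.

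With a replicate block the members called were again 5 in HEK293T and 2 between the lines, and over all genes 345 rose and 172 fell in HEK293T, against 521 and 273 without it. The numbers do not pair the samples. Other counts that moved by over 1.5 times were those with the 6 libraries alone (1281 and 618), with DESeq2 without replicate 3 (1151 and 651) with the GC trend removed without replicate 3 (1087 and 566), and with 1 library left out (204 to 1154 and 64 to 608). Counts under 20 limit HSF2BP, PDE4B, HDAC9, PALMD and SULT2B1 in HEK293T +Met. In R1 +Met, on which the R1 folds rest, they limit PDE4B, PALMD and SULT2B1, and HDAC9 in replicate 3. SULT2B1 was also under 20 counts in HEK293T −Met+Hcy and in replicate 1 of R1 −Met+Hcy.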
